A study of Mus musculus with 36 samples.

Results

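The vomeronasal receptor genes encode the pheromone receptors of the mouse. They were taken as the genes annotated as protein coding on the autosomes of GRCm38 whose symbols start with Vmn1r or Vmn2r. There were 354 of them among 20665 autosomal protein-coding genes, 231 Vmn1r and 123 Vmn2r genes. The listed spans of 3 of them (Vmn2r122 on chromosome 4, Vmn1r186 and Vmn1r187 on chromosome 7) lie within the first 3 Mb of their chromosome, where no library recorded any position, so these 3 could not be counted. The other 351 genes, 229 Vmn1r and 122 Vmn2r, were described. The genes were picked as silent in the tissues studied, but RNA profiles were not analysed here and the silence was not tested.

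The vomeronasal organ is a chemosensory organ at the base of the nasal septum that detects pheromones and other social odours. Vmn1r genes encode the V1R receptors, which have a short extracellular end and are typically encoded by a single coding exon. Vmn2r genes encode the V2R receptors, which have a long extracellular ligand-binding region spread over several exons and a membrane-spanning region encoded by the last exon. A sensory neuron of the organ typically expresses a single V1R gene, or a single V2R gene together with a broadly expressed V2R co-receptor. Both families have expanded in rodents by repeated local duplication, so that the genes lie in clusters of near-copies among repeats and pseudogenes.

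All samples came from male C57BL/6J mice aged 24 months, untreated as far as the labels say, and 6 tissues were profiled: bone marrow, sperm, brain, heart, liver and the mononuclear cells of peripheral blood (PBMCs). Each tissue was represented by 2 samples, and the labels name 2 mice as the source of all tissues without saying which mouse gave which sample. Each sample was profiled for single-strand breaks (SSBs) with SSiNGLe and for AP sites, which are sites where the DNA has lost a base, with SSiNGLe-AP, which gave 24 libraries, 12 per assay. Whole organs were ground, so the brain, heart and liver samples hold mixed cell types, red cells had been lysed in bone marrow, PBMCs came off a density gradient, and sperm were motile cells of the epididymis. Sperm DNA was purified with a different kit from the DNA of the other 5 tissues, so the tissue and the kit cannot be told apart. Lesion lists hold no RNA, so the labelled tissues could not be checked against marker genes. The SSB libraries held 225011 to 1041983 positions and the AP libraries 460719 to 963258, and the overlap between replicates was 0.396% of the smaller list or less.

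The promoters of 6 genes are shown because the descriptions below turn on how alike such sequences are and on which bases the lesions were recorded. They are RefSeq windows of GRCm38.p6, 250 bases before to 50 after the gene start, written 5′ to 3′ on the strand of the gene, with a capital at each base where at least 1 library recorded a position on either strand. They were chosen after their values were seen. Vmn1r93 (chr7:20139039-20139338, minus strand) shares its window letter for letter with Vmn1r114, Vmn1r126 and Vmn1r250, and none of these 4 genes had a position in any library. Vmn1r157 (chr7:22761447-22761746, plus strand) shares its window with Vmn1r112 and Vmn1r139, whose gene spans held no position. The window of Vmn1r157 held 1 SSB and 4 AP positions, and its gene span held 0 and 4. Counts of a window and of a span are different measures, and the windows of Vmn1r112 and Vmn1r139 were not compared with it. Vmn1r41 (chr6:89740638-89740937, plus strand) held 3 SSB and 7 AP positions, the most in a Vmn1r window, and Vmn2r3 (chr3:64287368-64287667, minus strand) held 1 and 10, the most in a Vmn2r window. Vmn2r129 (chr4:156330853-156331152, plus strand) is the promoter of the densest Vmn2r gene, with 6 AP positions and no SSB. Vmn2r116 (chr17:23384553-23384852, plus strand), the receptor for the male tear peptide ESP1, held 3 AP positions and no SSB.
Vmn1r93: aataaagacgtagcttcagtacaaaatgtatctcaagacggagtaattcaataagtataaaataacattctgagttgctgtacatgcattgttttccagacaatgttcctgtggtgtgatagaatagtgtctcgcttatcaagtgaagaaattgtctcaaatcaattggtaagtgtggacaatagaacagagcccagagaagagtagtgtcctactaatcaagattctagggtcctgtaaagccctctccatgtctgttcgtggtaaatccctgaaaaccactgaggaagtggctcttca
Vmn1r157: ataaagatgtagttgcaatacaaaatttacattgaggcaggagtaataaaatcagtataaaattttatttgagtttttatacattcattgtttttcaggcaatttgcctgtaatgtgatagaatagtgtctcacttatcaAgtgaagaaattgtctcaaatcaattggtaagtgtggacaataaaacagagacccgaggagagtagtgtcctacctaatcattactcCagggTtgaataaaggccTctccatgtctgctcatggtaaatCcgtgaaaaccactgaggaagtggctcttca
Vmn1r41: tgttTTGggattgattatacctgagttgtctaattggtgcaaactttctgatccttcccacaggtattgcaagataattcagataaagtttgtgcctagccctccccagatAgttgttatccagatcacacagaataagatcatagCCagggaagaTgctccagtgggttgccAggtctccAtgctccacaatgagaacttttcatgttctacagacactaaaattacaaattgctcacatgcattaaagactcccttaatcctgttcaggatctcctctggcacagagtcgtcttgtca
Vmn2r3: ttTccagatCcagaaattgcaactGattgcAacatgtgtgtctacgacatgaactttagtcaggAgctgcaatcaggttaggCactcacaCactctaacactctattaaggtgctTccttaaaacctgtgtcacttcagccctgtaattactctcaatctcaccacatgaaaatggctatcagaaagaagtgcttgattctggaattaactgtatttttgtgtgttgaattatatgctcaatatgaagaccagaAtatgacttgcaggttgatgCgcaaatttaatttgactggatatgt
Vmn2r129: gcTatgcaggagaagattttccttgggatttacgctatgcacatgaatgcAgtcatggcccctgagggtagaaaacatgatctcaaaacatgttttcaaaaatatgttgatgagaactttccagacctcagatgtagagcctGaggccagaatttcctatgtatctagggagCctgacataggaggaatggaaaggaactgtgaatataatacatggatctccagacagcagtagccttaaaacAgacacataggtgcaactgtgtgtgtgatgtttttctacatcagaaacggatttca
Vmn2r116: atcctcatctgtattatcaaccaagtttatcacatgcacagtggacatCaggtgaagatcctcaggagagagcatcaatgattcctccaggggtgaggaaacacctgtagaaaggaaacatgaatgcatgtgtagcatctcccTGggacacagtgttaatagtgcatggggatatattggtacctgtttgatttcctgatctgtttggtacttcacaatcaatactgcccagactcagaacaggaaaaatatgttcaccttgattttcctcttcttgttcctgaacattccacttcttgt

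Lesion density was expressed as LPKM, lesions scaled to both span and depth. Recorded positions on either strand, each counted once over the whole span of a gene, were divided by the span in bp and the library total, times 1e+09. The autosomes as a whole had an LPKM-SSB of 0.409 ± 0.000812 and an LPKM-AP of 0.409 ± 0.000350 (SD, n = 12 libraries each). Vmn1r genes lay close to that level and Vmn2r genes far below it. The Vmn1r genes, which cover 355 kb, had an LPKM-SSB of 0.354 ± 0.0805 and an LPKM-AP of 0.454 ± 0.0558 (SD, n = 12). The Vmn2r genes, which cover 3202 kb, had an LPKM-SSB of 0.139 ± 0.0150 and an LPKM-AP of 0.151 ± 0.0114. The other autosomal protein-coding genes had 0.529 ± 0.0104 and 0.528 ± 0.00802, and all sequence outside genes had 0.311 ± 0.00819 and 0.310 ± 0.00574. A Vmn1r value rested on 17 to 154 SSB or 67 to 171 AP positions per library and a Vmn2r value on 89 to 503 or 225 to 444. Counting error is part of the SD of the Vmn1r values.

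In bone marrow, the Vmn1r LPKM-SSB was 0.282 and 0.358 in the 2 libraries. It was 0.358 and 0.431 in brain, 0.359 and 0.416 in heart, 0.486 and 0.324 in liver and 0.300 and 0.359 in PBMCs. In sperm it was 0.398 and 0.172, and the lower of these values rested on 17 positions. The highest value was in a liver library and the lowest in a sperm library, and the replicates of these 2 tissues lay farther apart than those of the other 4. The Vmn1r LPKM-AP was 0.539 and 0.509 in bone marrow, 0.396 and 0.391 in brain, 0.464 and 0.528 in heart, 0.387 and 0.458 in liver, 0.427 and 0.477 in PBMCs and 0.389 and 0.489 in sperm. Both brain libraries were low for AP sites and bone marrow was high, but the range of liver and of sperm overlapped that of brain.

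The Vmn2r LPKM-SSB was 0.123 and 0.118 in bone marrow, 0.130 and 0.126 in brain, 0.157 and 0.151 in heart, 0.133 and 0.132 in liver, 0.150 and 0.153 in PBMCs and 0.131 and 0.162 in sperm. Bone marrow was lowest and heart and PBMCs were higher than brain and liver in both replicates, while the sperm libraries spanned most of the range. The Vmn2r LPKM-AP was 0.142 and 0.147 in bone marrow, 0.135 and 0.148 in brain, 0.153 and 0.159 in heart, 0.176 and 0.152 in liver, 0.150 and 0.151 in PBMCs and 0.135 and 0.160 in sperm. These values overlapped among most tissues. In all 24 libraries the Vmn2r genes lay below every Olfr value and below the Vmn1r value of the same library.

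**Figure D1:**
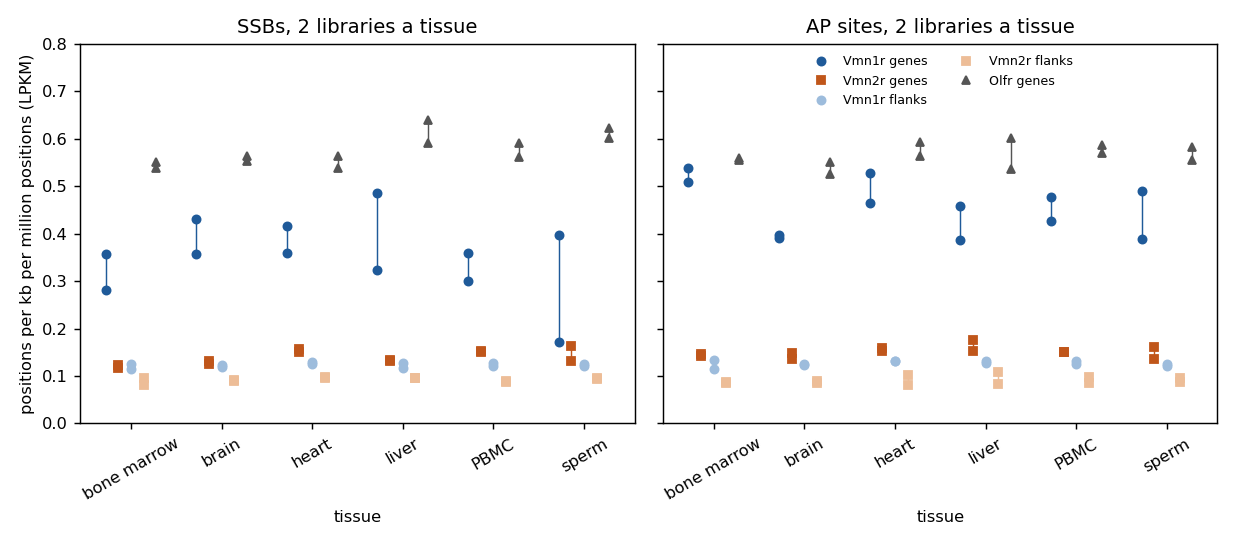
LPKM (recorded positions scaled to kb and to library depth, y axis) of Vmn1r genes, Vmn2r genes, their flanks and Olfr genes in each tissue (x axis), SSBs on the left and AP sites on the right. Each point is 1 library and a line joins the 2 libraries of a tissue; Vmn2r genes lay between 0.118 and 0.176 throughout, above their flanks and below the Olfr genes.

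The first comparison was with the DNA around the genes, the flanks of 100 kb on either side outside every annotated gene. Vmn1r genes held more lesions than their flanks, by 2.81-fold for SSBs (log2 ratio 1.49 ± 0.39, SD over 12 libraries) and by 3.57-fold for AP sites (1.84 ± 0.19). Vmn2r genes held 1.50-fold more SSBs (0.59 ± 0.16) and 1.67-fold more AP sites (0.74 ± 0.10) than theirs. All 12 libraries of each assay showed this direction for both families, and each adjusted p was 0.000488, the smallest that the exact two-sided sign-flip permutation test over 12 libraries can give. The lowest ratio of a single library was 1.38 for Vmn1r SSBs, 2.95 for Vmn1r AP sites, 1.24 for Vmn2r SSBs and 1.54 for Vmn2r AP sites.

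The flanks themselves were poor in recorded lesions. Vmn1r flanks had an LPKM-SSB of 0.122 ± 0.00481 and an LPKM-AP of 0.126 ± 0.00524, and Vmn2r flanks 0.0921 ± 0.00487 and 0.0906 ± 0.00801 (SD, n = 12). Relative to all sequence outside genes, the Vmn1r flanks held 0.394-fold the SSBs and 0.408-fold the AP sites, and the Vmn2r flanks 0.296-fold and 0.291-fold, below it in 12 of 12 libraries each. Of the 1-kb windows of the Vmn1r and Vmn2r flanks, 65.3% and 67.1% held no position in any of the 24 libraries, against 29.7% of all windows outside genes. Of the 1-kb windows within Vmn2r genes 50.4% were empty, against 24.5% in Olfr genes and 11.6% in the other coding genes. In the Vmn1r genes with long spans 28.6% were empty, close to the share outside genes. Over all windows, the 24 libraries together held a mean of 2.00 positions in Vmn2r genes and 1.26 in their flanks. Among windows that were not empty the means were 4.04 and 3.82. For long Vmn1r genes and Vmn1r flanks they were 4.02 and 1.75 over all windows, and 5.63 and 5.03 without the empty ones. Leaving out empty windows raises the mean by a larger factor where more windows are empty. The closer means of genes and flanks therefore follow in part from that choice. Whether reads could be placed in the empty windows, and the base composition of the windows, was not tested, since no genome sequence was used here.

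Lesion density changed with distance from the genes in the same way for both assays. Within 1 kb of a Vmn1r gene the LPKM-SSB was 0.184 ± 0.0351, and at 10 to 20 kb it was 0.0718 ± 0.0100. At 50 to 100 kb it was back at 0.209 ± 0.0175. Around Vmn2r genes it was 0.206 ± 0.0539 within 1 kb, 0.0597 ± 0.0179 at 5 to 10 kb and 0.121 ± 0.00730 at 50 to 100 kb (SD, n = 12). LPKM-AP ran alongside, with 0.184, 0.0706 and 0.217 around Vmn1r genes and 0.247, 0.0623 and 0.113 around Vmn2r genes. The first kb outside a Vmn2r gene held more lesions per kb than the average of the gene itself. A dip and return of this shape was also present around Olfr genes, at a higher level, with an LPKM-SSB of 0.268 within 1 kb, 0.115 at 10 to 20 kb and 0.308 at 50 to 100 kb.

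**Figure D2:**
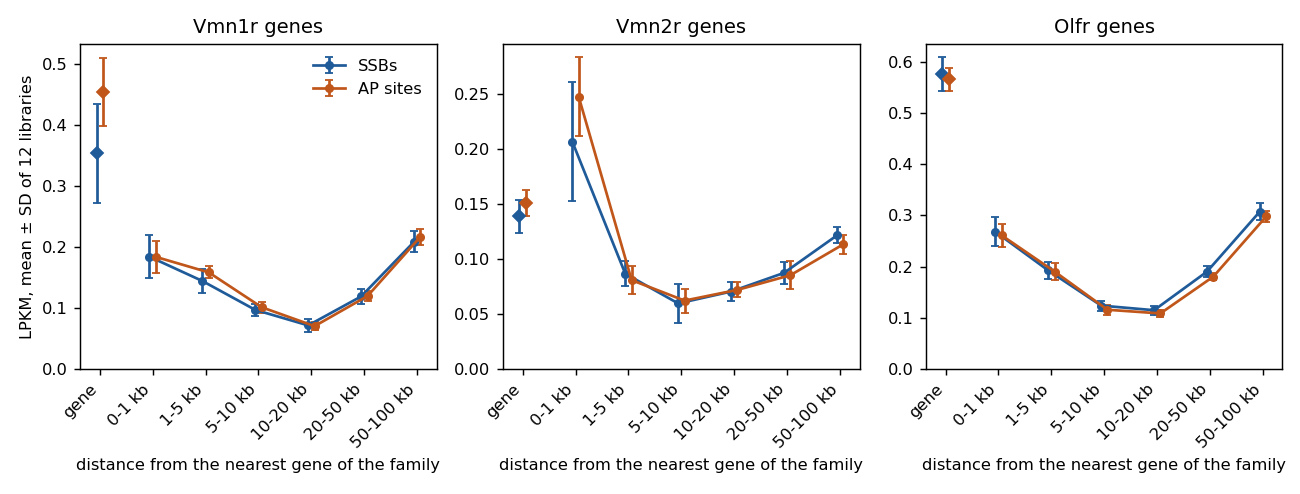
LPKM (y axis, mean ± SD of 12 libraries) within the genes (diamonds) and at increasing distance from the nearest gene of the family (x axis, in kb, outside all annotated genes), for Vmn1r, Vmn2r and Olfr genes, with SSBs in blue and AP sites in orange. In each panel the density fell from the first kb to a minimum at 5 to 20 kb and rose again towards 100 kb; the y axes differ between panels.

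The families differed from each other. Vmn1r genes held 2.49-fold more SSBs (log2 ratio 1.31 ± 0.47) and 3.0-fold more AP sites (1.59 ± 0.20, SD over 12 libraries) per kb than Vmn2r genes, in 12 of 12 libraries for each assay (adjusted p = 0.000488, exact sign-flip permutation test, two-sided). Span length and gene structure go with family: Vmn1r spans ran from 870 to 33695 bp with a median of 924 bp, and Vmn2r spans from 8397 to 142676 bp with a median of 24640.5 bp. The 200 Vmn1r genes with spans under 1200 bp had an LPKM-SSB of 0.438 ± 0.109 and an LPKM-AP of 0.586 ± 0.0980, and the 29 longer ones 0.260 ± 0.0764 and 0.308 ± 0.0405. Set against only the last of 10 equal parts of each Vmn2r span, the excess of the Vmn1r genes was 0.24 on the log2 scale for SSBs (adjusted p = 0.104) and 0.26 for AP sites (adjusted p = 0.00586, same test). That part was the densest of the 10 in both assays and the comparison was not planned. A smaller excess follows from that choice, so these values do not test whether gene structure accounts for the difference.

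Within Vmn2r genes, lesions were concentrated at the 3′ end. For the 116 Vmn2r genes of known strand, each span was cut into 10 equal parts. The last part had an LPKM-SSB of 0.294 ± 0.0482 and an LPKM-AP of 0.379 ± 0.0430 (SD, n = 12). The first part had 0.217 ± 0.0680 and 0.194 ± 0.0433, and the 7th had 0.0671 ± 0.0213 and 0.0834 ± 0.0218. The values of the 7th and 8th parts (0.0716 and 0.0701) were thus below those of the flanks. The last part of a V2R gene holds the large exon for the membrane-spanning region, and whether that exon itself carried the positions was not tested, since the annotation used here gives no exons. In the 206 Vmn1r genes of known strand the parts varied between 0.212 and 0.490 for SSBs and between 0.309 and 0.598 for AP sites, with SDs of 0.0992 to 0.232. The first and the last part had 0.271 and 0.394 for SSBs and 0.554 and 0.309 for AP sites, and a trend along the gene was not tested.

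**Figure D3:**
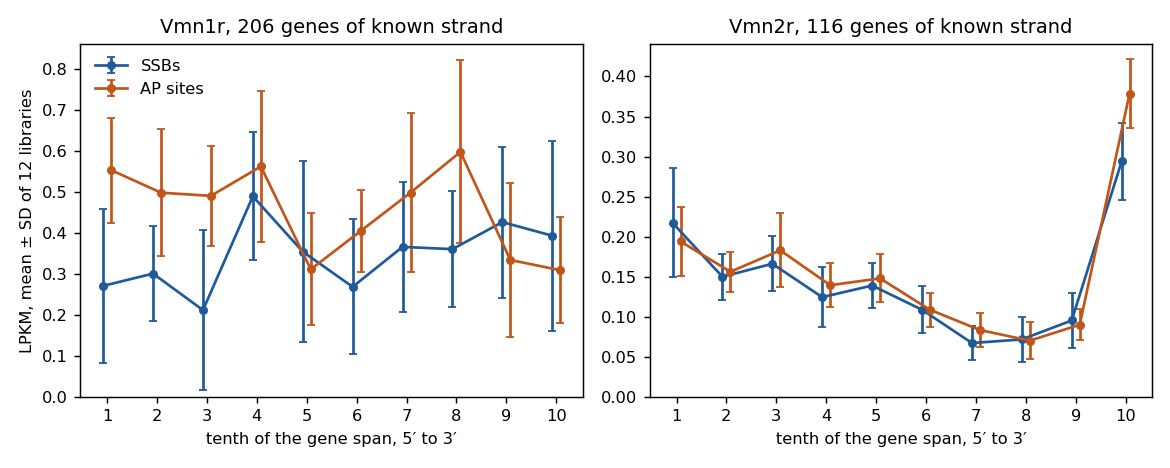
LPKM (y axis, mean ± SD of 12 libraries) in 10 equal parts of the gene span from 5′ to 3′ (x axis), for the 206 Vmn1r and 116 Vmn2r genes of known strand, with SSBs in blue and AP sites in orange. The last part of the Vmn2r genes stood at 0.294 for SSBs and 0.379 for AP sites, against 0.0671 and 0.0834 in the 7th part.

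The assays were compared within samples, since the same DNA sample served both. Vmn1r LPKM-SSB was 0.761-fold the LPKM-AP (log2 ratio -0.39 ± 0.49, lower in 9 of 12 samples, adjusted p = 0.0132). Vmn2r LPKM-SSB was 0.918-fold the LPKM-AP (-0.12 ± 0.15, lower in 9 of 12 samples, adjusted p = 0.0132, exact sign-flip permutation test over 12 pairs, two-sided). Both differences missed the threshold of 0.05 when every library was thinned to the 225011 positions of the smallest (adjusted p = 0.0820 and 0.250) and when tissue means were the unit (adjusted p = 0.0625 for both). LPKM is a share of each library's own positions, so this comparison says nothing of the number of lesions per genome.

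Olfr genes, the olfactory receptor genes of the main olfactory epithelium, are the other large clustered family of chemosensory receptors and are encoded mostly by a single coding exon. The 1103 Olfr genes had an LPKM-SSB of 0.576 ± 0.0330 and an LPKM-AP of 0.565 ± 0.0231 (SD, n = 12). Vmn1r genes were at 0.597-fold of that for SSBs (log2 ratio -0.74 ± 0.40) and 0.799-fold for AP sites (-0.32 ± 0.18). Vmn2r genes were at 0.240-fold (-2.06 ± 0.16) and 0.266-fold (-1.91 ± 0.07). None of the 12 libraries of an assay had a value above that of the Olfr genes in any of the 4 comparisons (adjusted p = 0.000488 each, same test). Among spans under 1200 bp, the 933 Olfr genes had 0.891 ± 0.0721 and 0.884 ± 0.0336, which put the short Vmn1r genes lower by -1.07 (SSBs) and -0.61 (AP sites) on the log2 scale (adjusted p = 0.000488 each). Other short coding genes had 0.908 ± 0.0627 and 0.899 ± 0.0255.

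The annotated Vmn pseudogenes, disabled copies in the same clusters, held more lesions per kb than the coding genes when whole families were compared. The 137 Vmn1r pseudogenes had an LPKM-SSB of 0.465 ± 0.105 and an LPKM-AP of 0.576 ± 0.0778, and the 128 Vmn2r pseudogenes 0.179 ± 0.0120 and 0.196 ± 0.0159. The coding Vmn2r genes were at 0.775-fold of their pseudogenes for SSBs and 0.771-fold for AP sites, lower in 12 of 12 libraries (adjusted p = 0.000651 each). The coding Vmn1r genes were at 0.790-fold for AP sites (12 of 12 libraries, adjusted p = 0.000651) and 0.757-fold for SSBs (10 of 12 libraries, adjusted p = 0.0146, same test). Span length differs between these sets, with a median of 851 bp in Vmn1r pseudogenes and of 3220 bp in Vmn2r pseudogenes against 24640.5 bp in coding Vmn2r genes. The 200 Vmn1r genes with short spans had 0.438 for SSBs and 0.586 for AP sites, close to the 0.465 and 0.576 of the Vmn1r pseudogenes, and sets of matched span were not tested. The Vmn1r differences missed the threshold with thinned libraries (adjusted p = 0.258 for SSBs and 0.0872 for AP sites).

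Strand was recorded for each position, and the genes' strands came from the RefSeq promoter windows. The source of the strand in the lesion lists was not given in the sources used here, so it was taken as the strand of the lesion. In Vmn1r genes 38.2% ± 8.04 of the SSB positions and 55.1% ± 4.43 of the AP positions lay on the template strand (SD, n = 12). In Vmn2r genes the shares were 42.1% ± 3.69 and 51.6% ± 3.64. SSBs were below 50% in 11 of 12 libraries for Vmn1r and in 12 of 12 for Vmn2r (adjusted p = 0.00195 each), and AP sites were above 50% in 11 of 12 libraries for Vmn1r (adjusted p = 0.00456). The Vmn2r AP share missed the threshold (above 50% in 7 of 12 libraries, adjusted p = 0.149, exact sign-flip permutation test, two-sided). Olfr genes showed 33.7% ± 3.35 and 60.2% ± 2.46, and other coding genes 45.7% ± 1.10 and 49.6% ± 0.544. The base composition of the strands was not tested.

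**Figure D4:**
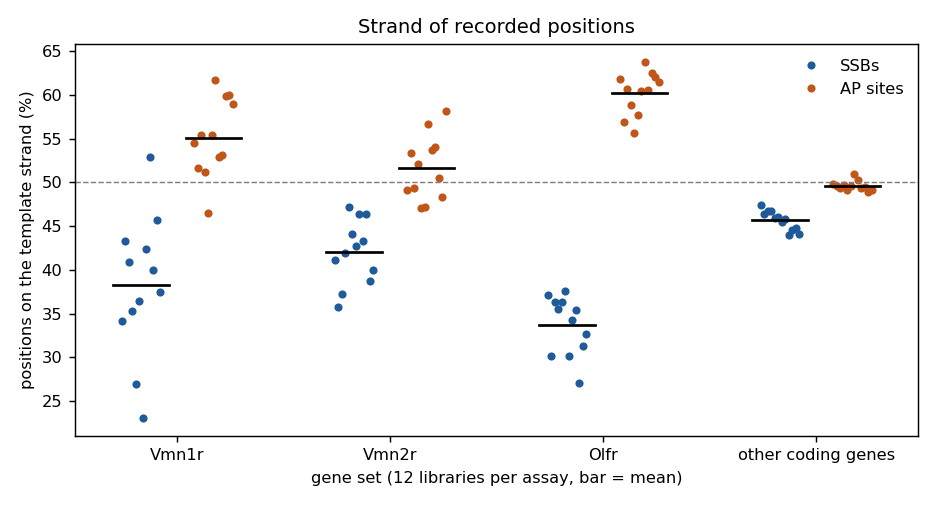
Share of recorded positions on the template strand (y axis, percent) for each gene set (x axis), with 1 point per library, 12 libraries per assay, and bars at the mean. SSBs (blue) lay below the dashed line at 50% in all but 1 Vmn1r library, and AP sites (orange) lay above it in 11 of 12 Vmn1r libraries and straddled it in Vmn2r genes.

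The bases at the recorded positions could be read only in the promoter windows, of which 206 belonged to Vmn1r and 116 to Vmn2r genes. At least 1 position fell in 111 and 92 of these. Whether the recorded nucleotide is the lesion itself or a neighbour was not given in the sources used here, so the shares describe the recorded base only. Of the AP positions, 53.1% lay on an A in Vmn1r windows (110 of 207, exact 95% interval 46.1 to 60.1%) and 55.6% in Vmn2r windows (94 of 169, 47.8 to 63.2%), where A makes up 32.2% and 31.0% of the bases of both strands. In Olfr windows the share was 50.1%, with 32.0% A, and in all other windows 38.2%, with 22.6% A. SSB positions lay on an A in 8.24% of cases in Vmn1r windows and 6.49% in Vmn2r windows, and on a C in 40.0% (34 of 85) and 33.8% (26 of 77). Such intervals cover counting error only.

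Few nucleotides were hit repeatedly. Of 1405 distinct Vmn1r AP positions 16 were recorded in at least 2 libraries, and of 4171 in Vmn2r genes 47 were, none in more than 3 libraries. For SSBs the counts were 1 of 723 and 10 of 2443. The values above were therefore spread over many single nucleotides and not set by a few of them.

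Tissue differences were tested next, in the families as wholes and gene by gene. For the families, the variance between tissues was set over that between replicates (F), with an exact permutation test over all ways to pair the 12 libraries and adjustment over 8 tests. Neither family passed the threshold. The largest F was that of Vmn2r LPKM-SSB, 4.58, with heart 1.28-fold above bone marrow (exact permutation p = 0.0686, adjusted p = 0.549), followed by Vmn1r LPKM-AP with 2.34 (adjusted p = 0.603). Vmn2r LPKM-AP and Vmn1r LPKM-SSB gave 1.17 and 0.642 (adjusted p = 0.706 and 0.875). Without the first sperm library, which leaves the low sperm value of 0.172 as the only one of that tissue, Vmn1r LPKM-SSB gave 3.9 (adjusted p = 0.122). As ratios to the flanks, F lay between 0.343 and 1.88 and the smallest adjusted p was 0.603. Sperm libraries, whose Vmn2r LPKM-SSB was 0.131 and 0.162, decided the value of Vmn2r LPKM-SSB: without sperm F was 44.4 (adjusted p = 0.0169), and it was 45.9 and 36.2 without the first or the second sperm library alone (adjusted p = 0.00320 and 0.0215). As a ratio to the flanks, Vmn2r SSBs without sperm still missed the threshold (F = 4.83, adjusted p = 0.231). The share of SSB positions with a count above 1 moved with the tissue too. It was 0.521 to 1.23% in heart, PBMCs and sperm and 0.140 to 0.355% in bone marrow, brain and liver, and its part in the order of the tissues was not tested.

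Gene by gene, edgeR's quasi-likelihood test with Benjamini-Hochberg adjustment over all genes called none of the 89 Vmn1r and 116 Vmn2r genes tested for SSBs, and none of the 163 and 119 tested for AP sites. The background was 48 of 38486 genes called for SSBs (0.125%) and 0 of 41374 for AP sites (0%). At an unadjusted p under 0.05 there were 1 Vmn1r and 0 Vmn2r genes for SSBs and 0 and 6 for AP sites, against 4.85% and 2.95% of all genes, and DESeq2 called none of the genes either. The 6 Vmn2r genes were 5.04% of the 119 tested. The remaining genes had a value above 0 in fewer than 20% of the libraries and were not tested.

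The smallest p belonged to Vmn2r45 (chr7:8471469-8488959) for AP sites, at 0.00127 (edgeR, adjusted p = 1.0). It held 0 and 0 AP positions in bone marrow, 0 and 0 in brain, 3 and 3 in heart, 0 and 1 in liver, 4 and 5 in PBMCs and 5 and 4 in sperm. The values of heart, PBMCs and sperm did not overlap those of the other 3 tissues, and its promoter window is identical to that of Vmn2r34, and the placing of reads between such genes was not tested. For SSBs the same gene held 0 to 8 positions without that order. Vmn1r32 (chr6:66552183-66559708) had the smallest p among Vmn1r genes for SSBs (0.0242, edgeR, adjusted p = 0.877), with 3 and 4 positions in bone marrow, 1 and 4 in heart and 0 or 1 in each other library. Vmn2r118 among Vmn2r genes for SSBs and Vmn1r220 among Vmn1r genes for AP sites had the smallest values of the other 2 groups (adjusted p = 0.992 and 1.0, edgeR). These 4 genes held 0 to 11 positions per library, and differences among tissues were mostly not detectable at this depth.

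Single genes rested on few positions. Summed over the 12 libraries of an assay, a Vmn1r gene held a median of 2 SSB and 5 AP positions and a Vmn2r gene 17.5 and 31. The median LPKM of the Vmn1r genes was 0.393 for SSBs and 0.510 for AP sites, and that of the Vmn2r genes 0.143 and 0.157, against 0.632 and 0.640 over all genes tested. Of the 122 Vmn2r genes, 121 lay below the genome mean for SSBs and 120 for AP sites, and the exact 95% Poisson interval lay wholly below it in 112 and 110. Of the 229 Vmn1r genes, 136 and 90 lay below the mean, and the interval lay wholly below it in 5 and 7. Most Vmn1r spans were too short for an interval to lie wholly below the mean, even with no position at all. At the genome mean, 10 positions were expected in 9 Vmn1r genes for SSBs and 14 for AP sites, and in all 122 Vmn2r genes. The counts of such intervals therefore follow span length and do not compare the families. For comparison, the lower quartile over all genes tested was 0.429 for SSBs and 0.429 for AP sites, above the genome mean of 0.409. In the 20209 other autosomal coding genes, which like the families were not filtered by counts, it was 0.448 and 0.448. How many of all genes had an interval wholly below the mean was not counted, so the 112 and 110 Vmn2r genes have no background share beside them. Across genes, LPKM-SSB and LPKM-AP went together with Pearson's r = 0.567 and Spearman's rho = 0.645 in Vmn1r and 0.798 and 0.797 in Vmn2r genes. Those points share spans, samples and base composition, and genes are not independent replicates.

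The densest Vmn2r gene was Vmn2r129, also the shortest (chr4:156331103-156339499), which stands alone in its cluster. It held 0 and 0 SSB positions in bone marrow, 4 and 2 in brain, 3 and 4 in heart, 2 and 0 in liver, 0 and 4 in PBMCs and 0 and 2 in sperm. Its AP positions were 4 and 6 in bone marrow, 11 and 6 in brain, 4 and 3 in heart, 5 and 2 in liver, 7 and 4 in PBMCs and 6 and 5 in sperm. AP sites were thus present in every library, and the LPKM of 0.453 for SSBs (95% interval 0.281 to 0.693) and 0.850 for AP sites (0.653 to 1.09) was highest in the family for both. The next were Vmn2r115 (0.370 and 0.323), Vmn2r88 (0.340 and 0.439), Vmn2r28 (0.298 and 0.271) and Vmn2r85 (0.287 and 0.250) in the order of SSBs. For AP sites Vmn2r9 (0.208 and 0.391), Vmn2r84 (0.172 and 0.389) and Vmn2r71 (0.279 and 0.349) also ranked among the 5 highest. Of these genes, Vmn2r88, Vmn2r9, Vmn2r84 and Vmn2r71 had spans of 8442 to 9564 bp, near the shortest of the family.

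At the other end, Vmn2r46 and Vmn2r47, with spans of 15936 and 24544 bp, held no position in any library. Counts of 0 allow an LPKM-SSB of up to 0.0419 and 0.0272 and an LPKM-AP of up to 0.0262 and 0.0170 (upper ends of exact two-sided 95% intervals). Vmn2r21 held 2 SSB and 1 AP positions in 40899 bp. Vmn2r40 (0.0153 and 0.0287), Vmn2r20 (0.0276 and 0.0967), Vmn2r42 (0.0319 and 0.0199) and Vmn2r36 (0.0281 and 0.0263) were the next lowest by SSBs or AP sites. All of these except Vmn2r20 and Vmn2r21, which lie on chromosome 6, belong to the chromosome 7 cluster at chr7:7212996-13220289, where 24 Vmn1r and 28 Vmn2r genes had 0.125 and 0.153 together.

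Among V2R receptors of known role, Vmn2r1 to Vmn2r7 belong to the broadly expressed co-receptor group. Vmn2r1, the longest gene, held 4 to 29 SSB positions per library (median 9.5) and 11 to 35 AP positions (median 23), for an LPKM of 0.180 and 0.214. Its span contains that of Vmn2r2 (0.194 and 0.240), so both genes share positions. Vmn2r3 had 0.223 and 0.215, Vmn2r4 0.257 and 0.301, Vmn2r5 0.144 and 0.247, Vmn2r6 0.214 and 0.183 and Vmn2r7 0.138 and 0.192. These 7 genes on chromosome 3 had 0.189 and 0.219 as a cluster, above the family median and below the genome mean. Vmn2r26, a receptor gene often used to label V2R neurons, had 0.170 and 0.161, with 1 to 5 SSB and 1 to 9 AP positions per library. Vmn2r116, the ESP1 receptor, had 0.202 and 0.252, with 0 to 4 and 0 to 9.

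Only 9 Vmn1r genes for SSBs and 14 for AP sites were long enough to expect 10 positions at the genome mean, and the rest held few positions each. Among these, Vmn1r41 (chr6:89740888-89747414) had 0.583 for SSBs and 0.451 for AP sites, from 0 to 5 and 0 to 4 positions per library. Vmn1r30 (0.475 and 0.568), Vmn1r45 (0.470 and 0.512), Vmn1r51 (0.408 and 0.694), Vmn1r40 (0.888 and 0.702) and Vmn1r65 (0.333 and 0.521) were also high in either assay. Vmn1r5 was lowest (0.102 and 0.106), followed by Vmn1r63 (0.114 and 0.152), Vmn1r14 (0.155 and 0.235) and Vmn1r4, the longest (0.161 and 0.135). Vmn1r58 had 0.340 and 0.160, and Vmn1r32, with 0.337 and 0.256, fell among both the 5 highest and the 5 lowest for SSBs because so few genes were long enough.

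The short Vmn1r genes of the Vmn1r49 to Vmn1r54 group on chromosome 6 held few positions each. Vmn1r49, Vmn1r52 and Vmn1r85 each held 2 SSB and 7 AP positions, Vmn1r50 6 and 11, Vmn1r54 3 and 9, Vmn1r89 4 and 9, and Vmn1r53 2 and 1. Vmn1r237, the shortest gene of all, held 5 and 7. The intervals of such genes are wide, as for Vmn1r50, whose LPKM-SSB of 1.17 had a 95% interval of 0.428 to 2.54.

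The genes lie in 26 clusters, with neighbours less than 1000 kb apart, and clusters differed in density. The densest of the larger clusters, with 36 Vmn1r genes at chr13:22087878-23250323, had 0.738 for SSBs (95% interval 0.621 to 0.871) and 0.831 for AP sites, with flanks at 0.202 and 0.216. A cluster of 15 Vmn1r genes at chr6:89711261-90270053 had 0.560 and 0.643. The 28 Vmn1r genes at chr6:56923914-58472878 had 0.255 and 0.300. The largest cluster, 86 Vmn1r genes at chr7:20101158-24055691, had 0.207 (0.168 to 0.253) and 0.351, and its flanks were at 0.0414 and 0.0436, the lowest flanks for SSBs and AP sites of all 26. The mixed cluster of 14 Vmn1r and 22 Vmn2r genes at chr17:17703941-21314886 had 0.150 for SSBs and 0.150 for AP sites. The flanks of the cluster at chr6:89711261-90270053 were at 0.190 and 0.214. Those of the cluster at chr6:56923914-58472878, which was sparser in AP sites than the largest cluster, were at 0.0999 and 0.102. A link between the density of the genes and that of their flanks was not tested.

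All 38 Vmn1r genes without a position in any of the 24 libraries lay in that cluster of 86. Of these, 37 were among the 200 short Vmn1r genes (18.5%) and the other was Vmn1r132, with a span of 2403 bp. Genes without a position were 0.214% of the 933 short Olfr genes, 2.56% of other short coding genes and 9.49% of the Vmn1r pseudogenes. In the same cluster 73 of the 86 genes had a promoter at least 95% identical to that of another Vmn gene. Over all clusters, 83 Vmn1r genes had a promoter this close to another, and 37 of these genes held no position. Their LPKM was 0.234 for SSBs and 0.353 for AP sites, against 0.360 and 0.421 for the 38 genes at 80 to 95% and 0.442 and 0.552 for the 85 genes below 80%. Span differs among these classes, which covered 76.7 kb (83 genes), 127 kb (38 genes) and 124 kb (85 genes). Vmn1r genes with long spans were less dense than short ones, and classes of matched span were not tested. In Vmn2r genes the same classes gave 0.119 and 0.133 (37 genes), 0.150 and 0.158 (58 genes) and 0.156 and 0.168 (21 genes). The genes with no window in the table had 0.464 and 0.438 (23 Vmn1r genes) and 0.0604 and 0.0763 (6 Vmn2r genes, including the empty Vmn2r46 and Vmn2r47). Among genes with a window, density was thus lowest in the class of at least 95% promoter identity in both families and assays. The 6 Vmn2r genes without a window lay lower still. How the authors treated reads that fit several places was not given in the sources used here, and its part in these values was not tested.

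**Figure D5:**
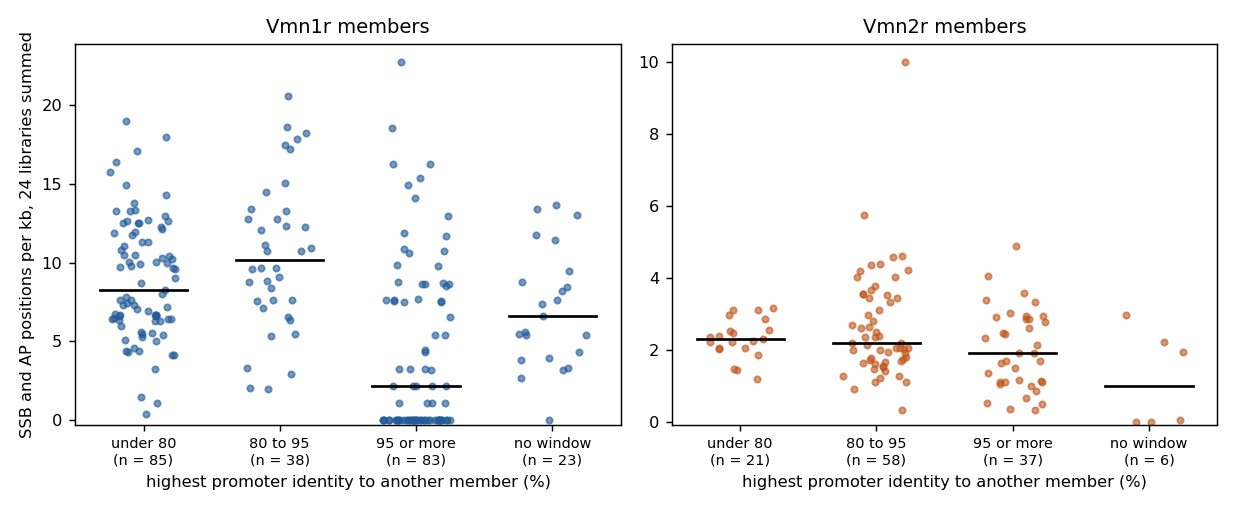
SSB and AP positions per kb, summed over the 24 libraries (y axis), for each Vmn1r (left) and Vmn2r gene (right), by the highest identity of its promoter window to that of another vomeronasal receptor gene (x axis, percent). Points are genes and bars are medians; 37 of the 83 Vmn1r genes at 95% or more sit at 0, and no gene with a window below 95% does.

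Genes with identical windows were compared next. Their counts cover whole spans, and identity outside the windows was not tested. Spans of such genes can differ, as in Vmn1r47 and Vmn1r48 with 933 and 909 bp. There were 25 groups of genes with letter-for-letter identical windows, holding 62 genes, of which 33 had no position. In 7 groups, such as that of Vmn1r93 above, every gene was empty, in 8 groups, such as that of Vmn1r157, only some were, and in 10 none was. The 4 groups of Vmn2r genes were pairs without an empty gene, and SSB and AP positions together came to 20 and 25, 30 and 37, 27 and 46, and 38 and 51 in the genes of a pair. Among close but not identical pairs, Vmn2r6 and Vmn2r7, 99.3% identical in this window, held 33 and 22 SSB positions and 45 and 49 AP positions. Vmn2r40 and Vmn2r41 held 2 and 4 SSB and 6 and 8 AP positions in spans of 23669 and 23647 bp. Vmn2r114 and Vmn2r115 held 23 and 33 SSB and 40 and 46 AP positions.

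Other genes of vomeronasal chemosensation were taken from lists of known parts of the system. The 9 signalling genes had a median LPKM-SSB of 0.896 and LPKM-AP of 0.854. Among them Trpc2, the transduction channel, had 0.896 and 0.931, Gnai2, the G protein of V1R neurons, 1.12 and 1.07, Gnao1, the G protein of V2R neurons, 0.853 and 0.854, and Omp, a marker of mature olfactory neurons, 1.73 and 1.41. Plcb2 had 1.07 and 1.07, Ano1 0.770 and 0.850, Gng8 1.95 and 0.488, Ano2 0.564 and 0.611 and Gnb1 0.480 and 0.474. Ano2 and Gnb1 in both assays, and Gng8 for AP sites, lay below the medians over all genes tested (0.632 and 0.640). The 9 H2-M genes, non-classical MHC genes expressed with V2R receptors, had medians of 0.931 and 1.06. Of 5 vomeronasal formyl peptide receptor genes 4 were found, with medians of 0.636 and 1.29 from few positions. Of 16 genes for exocrine gland-secreted peptides, which are V2R ligands, 15 were found, and their medians of 0.308 and 0.241 lay between those of the Vmn2r genes (0.143 and 0.157) and of the Vmn1r genes (0.393 and 0.510). None of the 36 genes of these lists tested for SSBs or the 37 tested for AP sites was called among tissues (edgeR). At an unadjusted p under 0.05 there were 3 of 36 for SSBs (Gnao1, Plcb2 and Ano2) and 0 of 37 for AP sites, against 4.85% and 2.95% of all genes tested.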

How the data were processed

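SSB and AP site maps of 6 tissues, 24 libraries, were analysed. Per the labels the coordinates are on mm10 (GRCm38). The authors deposited, for each library, a list of lesion coordinates at nucleotide level, each with its strand and the raw count there, made with their own code without normalization or pooling; the aligner and the treatment of reads that fit several places were not given in the sources used here. Each position was counted once. Gene spans and biotypes came from RefSeq genes of GRCm38 (49943 genes), strands and promoter windows from RefSeq GRCm38.p6 (322 of the 351 genes matched, 206 Vmn1r and 116 Vmn2r). Exons, a genome and protein sequences were not used here, so the planned classes by protein identity were replaced by promoter identity, chosen after seeing the data.

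LPKM of a family was its positions multiplied by 1e+09 over the summed span in bp (overlaps counted once) and the library total. Families were compared within libraries by exact two-sided sign-flip permutation tests (4096 sign patterns) and across tissues by F over all ways to pair the 12 libraries (one-sided), with Benjamini-Hochberg adjustment within each set of tests. Single genes were tested with edgeR 4.0.16 (TMM, genes above 0 in at least 20% of the libraries) in R 4.3.3, with DESeq2 1.42.0 as an alternative. Clusters joined genes less than 1000 kb apart. Further work used scipy 1.17.1, pandas 2.3.3, edlib 1.3.9.post1 and numpy 2.4.6 under Python 3.11.15, and the tests were tested on simulated data. The 12 libraries of an assay come from 2 mice, so p-values measure the spread between libraries, which may be technical. Depth was 225011 to 1041983 positions per SSB library and 460719 to 963258 per AP library; intervals are exact, at 95%, and cover counting error only. SSB and AP libraries of a sample were paired because the labels say they share a sample.

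The genes named were the 5 highest and 5 lowest in LPKM per family and assay among genes with at least 10 positions expected at the genome mean, the smallest edgeR p per family and assay, the longest and shortest genes, and receptors of known role. The genes and lists were chosen with earlier results of these data known.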

Additional observations from a re-analysis of the deposited data

Results flagged for a closer look

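Vmn2r121 is the only gene with a vomeronasal receptor symbol on the X chromosome and was left out of the families, which are autosomal. Its span (chrX:124127339-124135910) held 17 SSB and 21 AP positions over the 12 libraries of each assay, above the 3 positions that a count of 0 would allow, and it was listed for that reason. All samples were male, so this gene is present once per diploid cell and its density was not compared with that of the autosomal genes.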

How the results depend on the processing

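The comparisons with flanks, Olfr genes, pseudogenes and between families, the strand shares and the tissue tests were repeated with summed counts, thinned libraries, other flanks, gene subsets, tissue means and without each library. Among the values from alternatives other than leaving out a library, 213 kept their side of the threshold, 10 lost significance and 1 gained it. Without each library in turn 382 kept their side and 2 gained significance. No mean ratio or strand share reversed its direction. The tissue tests and the counts of genes called have no direction. The F of LPKM does not use the flanks, so it stayed the same by definition under other flanks. SSBs against AP sites fell below significance with thinned libraries (log2 ratio -0.38 in Vmn1r, adjusted p = 0.0820, and -0.073 in Vmn2r, 0.250), without Vmn2r genes that overlap another gene (-0.10, 0.119), without Vmn2r genes of 95% or more promoter identity (-0.11, 0.0723) and with tissue means (-0.39 and -0.12, both 0.0625). Vmn1r against its pseudogenes did so with thinned libraries (-0.23 for SSBs, 0.258, and -0.25 for AP sites, 0.0872) and without genes of 95% or more promoter identity (-0.26 for SSBs, 0.0933). Vmn1r against the last and densest of 10 parts of the Vmn2r spans, an unplanned comparison, did so for SSBs (0.24, 0.104). Vmn2r LPKM-SSB passed the threshold among tissues without sperm (F = 44.4, 0.0169), and its F ranged from 2.88 to 45.9 without each library. The F of Vmn1r SSBs ranged from 0.474 to 3.9, of Vmn1r AP sites from 1.41 to 4.30 and of Vmn2r AP sites from 0.637 to 2.43, with no call. The causes of these changes were not tested. Thinning left fewer positions, and with 6 tissue means the smallest p that the sign-flip test can give is 0.0312.

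The pairing of replicate numbers across tissues was checked: correlations of same-numbered libraries lay between -0.0336 and 0.0233 for SSBs and between -0.188 and 0.131 for AP sites, with 0 and 1 of 15 above 0.1, so the numbers were not taken as pairs. With the replicate block, F was 0.670 (Vmn1r SSB), 4.44 (Vmn1r AP), 4.78 (Vmn2r SSB) and 1.31 (Vmn2r AP), edgeR called 0 genes of either family, and no call changed. Without the pairing by sample, SSBs against AP sites kept its calls (-0.39 and -0.12). The count of all genes called for SSBs moved from 48 to 4 with DESeq2, to 59 with the block and to between 4 and 65 without each library. The alternatives by protein identity were not run, since no protein table was used here. Depth limits single genes, with a median of 2 SSB positions per Vmn1r gene, and the lower sperm value of Vmn1r SSBs rested on 17 positions.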
